A study of Mus musculus with 180 samples.

Results

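Chromatin accessibility was compared between embryonic stem cells (ESCs) and epiblast-like cells (EpiLCs) of 33 BXD mouse lines, each measured by ATAC-seq in both states. BXD strains are inbred strains descended from a cross of C57BL/6J (B6) and DBA/2J (D2), so each line carries its own mosaic of B6 and D2 chromosome segments. The comparison uses 66 libraries of the 180 samples in the series, 1 library per line and state, paired by the line number in the labels. The ESCs had been kept in naive conditions, the EpiLCs were the same lines after transition to the formative state, and 100000 cells entered each transposition reaction. No allele, transgene or drug separates the groups other than the culture that defines the state. ATAC-seq libraries of the parental strains, from 3 B6 lines called B41, B44 and B51 and from D29, D55 and DAC203 as 3 D2 lines, in both states, served as a separate set of 12 samples. ESC ChIP-seq of the parental strains for POU5F1, P300 and TRIM28 was used to describe the regions. The authors had called regions separately in the 2 states, and 59294 pairs of regions, each with 1 partner, overlapped over 50% or more of both partners, out of 112226 in the ESC table and 100415 in the EpiLC table. A further 38091 ESC regions and 29704 EpiLC regions overlapped none of the other table. Values are the authors' normalized signals, rescaled so that the shared regions sum to 1000000 in the average library of each table. A difference is EpiLC minus ESC within a line on the log2(value + 0.1) scale, which understates changes of low regions, and p-values are from limma over all 59294 regions with the line as a block, adjusted by the Benjamini-Hochberg method.

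ESCs in naive conditions correspond to the early epiblast and are held there by a network of transcription factors that includes NANOG, ESRRB, KLF2, KLF4, TBX3 and TFCP2L1. On transition to EpiLCs this naive network is shut down, while POU5F1 and SOX2 stay on, and POU3F1, OTX2 and the de novo DNA methyltransferases come up, as in the epiblast shortly after implantation. Enhancers in ESCs are often bound by POU5F1 together with SOX2 and carry P300, an acetyltransferase of active enhancers, and TRIM28 is a co-repressor recruited by KRAB zinc finger proteins. ATAC-seq reads such sites through the insertion of a transposase into open DNA.

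Some of the regions with the largest changes are shown first by their sequence. Each window is the 300 bases at the centre of the shared region, on the plus strand of the RefSeq GRCm38 genome. Capitals mark letters that match the SOX motif ACAAAGG or the octamer ATGCAAAT, which POU5F1 and related factors recognise, on either strand. Of all 59294 such windows, 7.91% held ACAAAGG and 2.67% held ATGCAAAT. The first 3 windows are from regions that closed and the next from one that opened. The last pair opened and is built of short tandem repeats, in which capitals mark copies of CATCC or AGGAGG that do not overlap. Copies that overlap a marked copy stay in lower case.
Smoc2 intron, closed, chr17:14301649-14301948: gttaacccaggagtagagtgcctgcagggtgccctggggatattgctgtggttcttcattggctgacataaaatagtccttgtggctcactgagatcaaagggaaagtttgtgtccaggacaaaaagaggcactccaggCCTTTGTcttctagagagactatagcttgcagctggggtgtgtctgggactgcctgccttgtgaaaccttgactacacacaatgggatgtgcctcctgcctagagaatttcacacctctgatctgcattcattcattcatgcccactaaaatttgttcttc
Near Cep170, closed, chr1:176644405-176644704: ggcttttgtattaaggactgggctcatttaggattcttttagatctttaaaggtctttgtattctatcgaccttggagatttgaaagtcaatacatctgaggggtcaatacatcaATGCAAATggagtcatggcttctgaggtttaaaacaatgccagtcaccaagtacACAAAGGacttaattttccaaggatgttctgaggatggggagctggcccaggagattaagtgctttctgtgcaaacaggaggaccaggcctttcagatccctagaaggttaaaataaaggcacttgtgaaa
Near Cdh8, closed, chr8:100887450-100887749: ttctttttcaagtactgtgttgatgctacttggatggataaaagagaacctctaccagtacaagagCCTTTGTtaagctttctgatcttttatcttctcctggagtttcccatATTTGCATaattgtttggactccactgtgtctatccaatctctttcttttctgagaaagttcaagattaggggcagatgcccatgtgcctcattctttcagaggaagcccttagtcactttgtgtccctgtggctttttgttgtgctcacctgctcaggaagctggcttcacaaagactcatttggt
Ppm1h intron, opened, chr10:122931661-122931960: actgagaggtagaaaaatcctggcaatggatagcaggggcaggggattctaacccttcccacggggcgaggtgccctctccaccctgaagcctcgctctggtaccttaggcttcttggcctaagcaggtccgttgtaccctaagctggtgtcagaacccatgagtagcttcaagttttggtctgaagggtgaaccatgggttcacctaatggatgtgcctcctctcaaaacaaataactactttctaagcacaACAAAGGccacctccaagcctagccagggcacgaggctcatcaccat
Near Fcgr3, opened, chr1:171073900-171074199: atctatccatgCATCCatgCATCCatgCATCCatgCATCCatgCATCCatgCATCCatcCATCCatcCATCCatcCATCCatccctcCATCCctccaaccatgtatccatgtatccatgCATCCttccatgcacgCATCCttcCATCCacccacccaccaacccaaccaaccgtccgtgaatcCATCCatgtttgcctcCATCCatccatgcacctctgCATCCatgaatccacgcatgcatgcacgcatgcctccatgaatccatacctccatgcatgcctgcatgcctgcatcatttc
Near Upf3b, opened, chrX:37116177-37116476: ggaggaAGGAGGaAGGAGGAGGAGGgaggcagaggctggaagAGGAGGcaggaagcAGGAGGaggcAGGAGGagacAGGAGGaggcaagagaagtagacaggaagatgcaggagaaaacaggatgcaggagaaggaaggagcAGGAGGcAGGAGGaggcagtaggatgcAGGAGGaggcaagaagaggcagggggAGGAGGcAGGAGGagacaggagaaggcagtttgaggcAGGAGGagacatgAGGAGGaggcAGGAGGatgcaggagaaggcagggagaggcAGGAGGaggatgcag
The windows near Cep170 and Cdh8 each held both motifs, and those in Smoc2 and Ppm1h held the SOX letters alone. Of the most closed regions named further on but not shown, that near Armh4 held the SOX letters. Those in Mbp, Dock5, Dglucy, Rtf1 and Dclk2 and near Abra and Gm21863 held neither motif. Of the most opened regions not shown, only that near P4ha2 held either motif, the SOX letters. The Fcgr3 window held 16 non-overlapping copies of CATCC and the Upf3b window 16 non-overlapping copies of AGGAGG on 1 strand. At least 1 copy of CATCC was found in 45.6% of all windows and of AGGAGG in 34.9%, and as many as 16 copies in 1 and 6 of the 59294 windows. A match is a description of the letters only, and repeat windows can draw reads from other copies, so their values are less certain.

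Reads in regions came to 8509843 to 18545493 per ESC library (median 13739321) and 2244456 to 15453136 per EpiLC library (median 12307947), with the lowest depth in the BXD69 EpiLC library. The shared regions held 66.1 to 68.7% of the ESC signal and 67.6 to 71% of the EpiLC signal. The line numbers did pair the libraries: over regions, the deviation of an ESC library from the ESC mean correlated best with the EpiLC library of the same number in 33 of 33 lines, in both directions, at 0.30 to 0.54, against at most 0.35 for another line. Some lines had raised signal over a whole chromosome, with the X in BXD74 (0.69 above the median line on the log2 scale in ESCs), BXD86, BXD85 and BXD44 in both states, chromosome 11 in BXD81, BXD99 and BXD161, chromosome 16 in BXD84 and chromosome 8 in BXD90. Above 0.2 in EpiLCs only were chromosome 11 in BXD84 (0.42, beside 0.16 in ESCs), the X in BXD98 (0.32) and chromosome 17 in BXD69 (0.24). The X in BXD63 was above 0.2 in ESCs only (0.35). The Y is left aside here. The origin of the lines (1 embryo each or not) is not recorded in the labels, and p-values therefore rest on the spread from line to line. In bulk libraries, fewer cells in the naive state and less accessibility per cell cannot be told apart.

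Among the shared regions, more closed strongly than opened. At least 2-fold lower accessibility in EpiLCs was measured at 6204 regions (10.5% of all shared regions) and at least 2-fold higher accessibility at 2555 (4.31%). All 33 lines moved the same way at 5619 of the former and 2311 of the latter. With changes of any size, 26392 regions passed the test upwards (44.5%) and 23104 downwards (39.0%), and the median difference over all regions was 0.04. Per base of region, 24624 passed upwards and 20026 downwards. The middle 90% of regions spanned −1.42 to 0.96. All 33 lines were higher in EpiLCs at 8837 regions (14.9%) and lower at 8650 (14.6%). A 4-fold change was reached by 13 opened and 817 closed regions. The direction of the imbalance was the same per base, where the value is divided by the width of the region in its own table and each table is rescaled to the same total: 2149 regions closed and 541 opened at least 2-fold, of which 2036 and 471 were also in the first sets. Median widths were 1105 bases in the ESC table and 1295 in the EpiLC table. The width ratio of EpiLC over ESC regions had a median of 1.19 over all regions, 1.72 over those opened and 0.78 over those closed, and across regions it correlated with the difference at Pearson r = 0.79, as a description. The size of the excess of closed regions moved with the overlap asked for. At 80% of both partners 173 regions opened and 1779 closed at least 2-fold, and with any overlap of 1 base 5919 and 7912. State, table and region calling coincide in the design and cannot be told apart.

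The regions with the largest losses lay in introns or between genes. The deepest loss was in an intron of Smoc2, which encodes a secreted calcium-binding matrix protein, at chr17:14301122-14302790 in the ESC table (mm10). Its value ran from 34.3 to 63.2 in the 33 ESC libraries (median 50.1) and from 2.57 to 9.14 in the EpiLC libraries (median 3.58). The states did not overlap, and accessibility fell by 3.75 on the log2 scale (SE 0.073, limma adjusted p = 3.1e-36), or by 2.50 per base. A region 98 kb from Cep170, which encodes a centrosomal protein, went from 44.1 to 69.2 in ESCs (median 52.9) to 3.0 to 7.13 in EpiLCs (median 4.92). It fell by 3.43 (SE 0.059), and the line with the smallest loss, BXD83, still lost 2.77. In both regions no EpiLC library was above 9.14 and no ESC library below 34.3.

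An intron of Mbp, the myelin basic protein gene, fell by 3.51 (SE 0.083), from a median of 47.3 in ESCs to 3.91 in EpiLCs. The region nearest to Cdh8, a cadherin gene 1471 kb away, fell by 3.32 (SE 0.085), from 15.9 to 45.9 in ESCs (median 28.7) to 1.33 to 5.71 in EpiLCs (median 2.87). Introns of Dock5, a guanine nucleotide exchange factor of Rac, of Dglucy, an enzyme of D-glutamate breakdown, and of Rtf1, a subunit of the Paf1 complex of transcribing polymerase, fell by 3.19, 3.17 and 3.15. A further 4 of the most closed regions, in Dclk2 and near Abra, Armh4 and Gm21863, fell by 3.05 to 3.14. Per base, these 11 regions fell by between 1.80 (near Armh4) and 2.50 (Smoc2). Each of the 11 overlapped a POU5F1 and a P300 region of ESCs, and all except that near Cdh8 overlapped a TRIM28 region. Of all shared regions, 30.2% overlapped both of the first 2 factors and 60.9% TRIM28.

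RNA of the gene that holds or neighbours a closed region went different ways. Dock5 RNA, as the authors' normalized signal, went from 76.9 ± 24.1 in ESCs to 28.5 ± 11.3 in EpiLCs (SD, n = 33) and was lower in each of the 33 lines. Dglucy RNA went from 7.96 ± 5.37 to 1.51 ± 1.31, lower in all lines but 1. Cep170 RNA was 32.2 ± 5.46 and 20.3 ± 7.67, higher in 4 lines. Rtf1 RNA was 53.8 ± 5.79 in ESCs and 58.8 ± 11 in EpiLCs, and the 2 states overlapped. Mbp RNA was 10.9 ± 6.33 and 8.01 ± 2.52, higher in 13 lines. Which gene a region acts on was not measured, and the neighbour is named by position only.

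**Figure D1:**
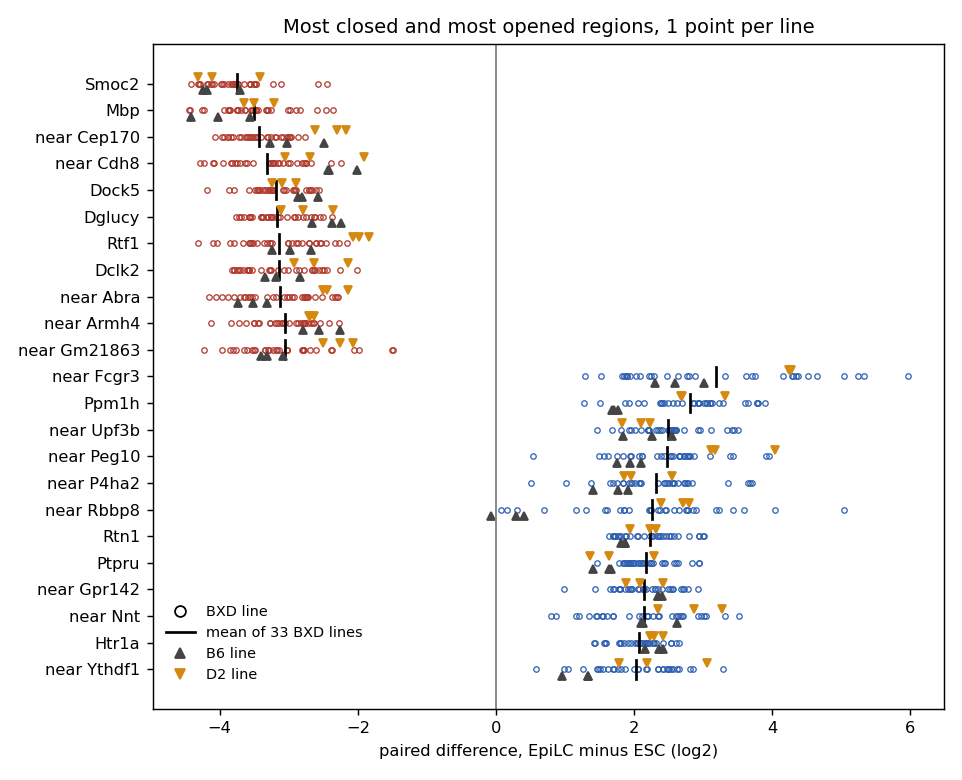
Paired difference (EpiLC minus ESC, log2) at 11 of the 12 most closed and at the 12 most opened regions, with 1 circle per BXD line, a bar for the mean of 33 lines, and triangles for the B6 and D2 lines. The circles of the closed regions lie left of −1.4 and those of the opened regions right of 0, with the widest spread near Fcgr3 and Rbbp8.

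The 12 most opened regions rose by 2.04 to 3.19, with SEs of 0.054 to 0.22, while the 11 most closed fell by 3.05 to 3.75, with SEs of 0.059 to 0.11. Not divided by width, the region near Fcgr3 was the only opened one whose change was as large as those of the closed set. Per base the sets overlapped in size, with Ppm1h (2.25) inside the range of the closed set. The tandem repeat 8.85 kb from Fcgr3, an immunoglobulin receptor gene of myeloid cells, had ESC values of 0.14 to 8.16 (median 2.68) and EpiLC values of 9.51 to 26.8 (median 18.9). It rose by 3.19 (SE 0.22, limma adjusted p = 4.0e-16), from 1.29 in BXD87 to 5.98 in BXD75, and 72.7% of its window was repeat-masked. An intron of Ppm1h, a protein phosphatase gene, went from 1.75 to 9.73 in ESCs (median 3.28) to 14.8 to 40.7 in EpiLCs (median 27.8). It rose by 2.81 (SE 0.11, limma adjusted p = 5.3e-26), or 2.25 per base, and the states did not overlap. Ppm1h RNA was 4.23 ± 1.32 in ESCs and 6.62 ± 2.03 in EpiLCs (SD, n = 33), higher in 30 lines. The repeat 4.94 kb from Upf3b, a factor of nonsense-mediated decay, rose by 2.50 (SE 0.080), from a median of 8.78 to one of 52.1, with the same rise per base. Upf3b RNA was 14.0 ± 3.83 and 31.0 ± 7.43, higher in all 33 lines, and 88.3% of the window was repeat-masked.

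A region 13.1 kb from Peg10, an imprinted gene expressed from the paternal copy, rose by 2.48 (SE 0.11), from 1.24 to 16.7 in ESCs (median 2.55) to 10.8 to 24.3 in EpiLCs (median 16.4). The states overlapped through BXD74, which moved by 0.54 only. Peg10 RNA was 118 ± 107 in ESCs and 529 ± 376 in EpiLCs (SD, n = 33), higher in all 33 lines. An intron of Ptpru, a receptor tyrosine phosphatase gene, rose by 2.18 (SE 0.059), from 2.94 to 8.47 in ESCs (median 6.55) to 20.4 to 35.6 in EpiLCs (median 28.0). Ptpru RNA was 2.39 ± 1.26 and 9.97 ± 3.84, higher in all lines. The promoter of Htr1a, a serotonin receptor gene, rose by 2.07 (SE 0.054), from 5.50 to 13.2 in ESCs (median 9.14) to 25 to 53.7 in EpiLCs (median 36.6). It was the only promoter among the 12. The RNA table shared by the states does not list Htr1a.

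Of the other 6, an exon of Rtn1 and regions near Gpr142, Nnt, P4ha2, Ythdf1 and Rbbp8 rose by 2.23, 2.15, 2.14, 2.32, 2.04 and 2.26. RNA of Nnt, the mitochondrial transhydrogenase, was 30.7 ± 11.5 in ESCs and 68.8 ± 17.7 in EpiLCs, higher in all 33 lines. RNA of P4ha2, a collagen prolyl hydroxylase, went against its region, at 23.1 ± 8.89 and 9.54 ± 4.03, higher in 2 lines. Near Rbbp8, a DNA end resection gene, the lines ran from 0.08 in BXD64 to 5.04 in BXD44, and the parental means were 0.21 in B6 and 2.63 in D2. The states overlapped near Rbbp8, Nnt and Ythdf1. Per base, the 12 regions rose by 1.5 to 2.64. None of the 12 overlapped POU5F1 together with P300. Those near Fcgr3 and in Ptpru and Htr1a overlapped P300 and TRIM28 regions, those in Ppm1h and near Rbbp8 and Ythdf1 POU5F1 regions alone, and the other 6 none.

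Strong losses lay away from promoters. Introns held 38.5% of the 6204 closed regions and intergenic DNA 52.4%, and these classes held 28.4% and 41.2% of all shared regions. Of 15545 promoter regions, within 1 kb of a transcription start, 2.56% closed and 5.63% opened at least 2-fold. Of 16858 intron regions 14.2% closed and 3.35% opened, and of 24414 intergenic regions 13.3% closed and 3.67% opened. Of 2477 exon regions 6.82% closed and 8.84% opened. Promoters made up 34.2% of the opened regions and 6.42% of the closed ones, beside 26.2% of all shared regions. The median difference was 0.22 in promoters and −0.12 in introns.

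Regions marked by POU5F1 and P300 in ESCs closed far more often than unmarked ones. Outside promoters, 10622 regions overlapped both a POU5F1 and a P300 region, and 33.3% of them closed at least 2-fold while 2.49% opened, with a median difference of −0.58. Of 16380 regions outside promoters with none of POU5F1, P300 and TRIM28, 4.12% closed and 4.69% opened, with a median of 0.08. Requiring the 2-fold change also per base left 13.7% and 0.96% closed. Regions with both factors, promoters included, held 61.3% of all closed regions and 30.2% of all shared regions. With only 1 of the pair the share was lower. Outside promoters, with or without TRIM28, 10.3% of 3440 regions with POU5F1 and no P300 closed, and 17.1% of 3318 with P300 and no POU5F1. Of 9989 regions outside promoters with TRIM28 alone, 6.71% closed. When the 10622 regions with both factors were ordered into 4 equal bins by POU5F1 signal in ESCs, 29.2%, 30.8%, 34.7% and 38.5% closed from the lowest bin to the highest. With promoters included, 21.2% of 17918 regions with both factors closed. The ChIP lists come from ESCs of other lines, and ChIP-seq of EpiLCs was not analysed here. Regions share libraries and are not independent, so these shares carry no test.

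**Figure D2:**
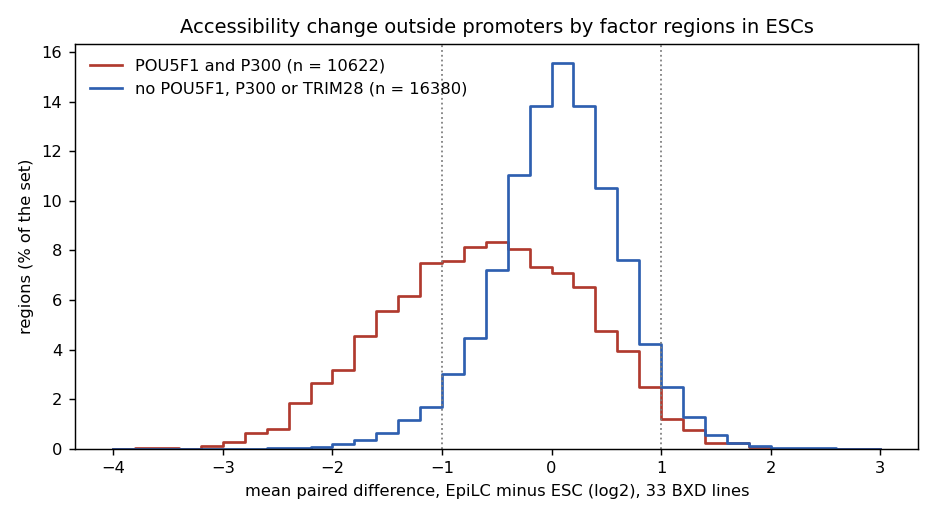
Share of regions (%) in each 0.2-wide bin of the mean paired difference (EpiLC minus ESC, log2, 33 BXD lines), outside promoters, for 10622 regions that overlap POU5F1 and P300 in ESCs and 16380 with none of POU5F1, P300 and TRIM28. Dotted lines mark 2-fold, and the first set has its long tail to the left, where 33.3% of it lies beyond 2-fold.

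The sequences of closed and opened regions differed in composition. The median GC content of the 300-base windows was 48.3% in closed regions, 57.0% in opened and 52.3% in all regions, and at least 50% of the bases were repeat-masked in 22.4%, 8.26% and 13.6%. Letters of the SOX motif ACAAAGG were in 12.3% of closed, 6.26% of opened and 7.91% of all windows, on either strand, and the octamer ATGCAAAT in 4.34%, 2.58% and 2.67%. Letters of ESRRB, TCAAGGTCA, a naive nuclear receptor, were in 1.72%, 0.16% and 0.68%, and those of KLF, GGGTGTGG, in 5.85%, 3.72% and 4.15%. The TEAD letters GGAATG, of factors that act with YAP, were in 25% of closed, 14.4% of opened and 16.9% of all windows. TCF/LEF letters CTTTGAT were in 5.87%, 3.33% and 3.9%. All 6 of these were thus more common in closed than in opened windows, but so were most of the 18 motifs looked at. AP-1 letters TGANTCA were in 11.7% of closed and 7.4% of opened windows, and FOX letters TGTTTAC in 5.79% and 2.78%. Letters of GATA, OTX, GRHL, STAT and a POU dimer also had the higher share in closed windows. Those of ZIC, TFAP2, CTCF, ETS and NFY had it in opened ones.

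Of the letters more common in opened windows, those of TFAP2 and CTCF were GC-rich. TFAP2 letters GCCNNNGGC were in 18.9% of opened, 8.82% of closed and 15.5% of all windows, and core CTCF letters AGGGGGC in 11.1%, 4.13% and 9.15%. Outside promoters, TFAP2 letters were in 14.9% of opened against 11.2% of all windows, and CTCF letters in 8.51% against 8.05%, with 4.03% of closed ones. ZIC letters CAGCAGG were in 20.5% of opened and 16.8% of all windows outside promoters. OTX letters GGATTA, of the factor that includes OTX2, were in 6.89% of opened, 10.5% of closed and 7.88% of all windows. The SOX letters kept their excess outside promoters, with 12.5% of closed and 8.96% of all windows. Base composition moves with all of these shares, and its part in them was not tested.

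Promoters of the naive network were among those that closed most. This list, like the other gene lists, was chosen with earlier results of these data known, so its counts are a description and not a test. Of several regions within 1 kb of a gene's transcription starts, that with the highest mean over the 66 libraries stood for its promoter. Changes at the others are not given. A promoter region was measured for 19 of 23 listed naive genes. Of these, 9 closed at least 2-fold and 0 opened, against 1.28% and 5.09% of all 13913 gene promoters. With changes of any size, 13 of the 19 were called lower, 5 higher, and Klf5 did not pass the test (−0.05), while 17.9% of all gene promoters were called lower and 66.4% higher. The median was −0.70, beside 0.23 over all gene promoters, and per base −0.14 beside 0.20, where Manba was the only one of the 19 with a 2-fold loss. Within 50 kb of the 23 genes lay 168 shared regions, of which 41 (24.4%) closed at least 2-fold and 0 opened.

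The promoter of Manba, a lysosomal mannosidase gene on the naive list, had ESC values of 94.7 to 136 (median 115) and EpiLC values of 14.4 to 36.4 (median 24.6). It fell by 2.21 (SE 0.051, limma adjusted p = 1.3e-33), or 1.09 per base. Its RNA was 193 ± 79.0 in ESCs and 34.4 ± 27.7 in EpiLCs (SD, n = 33), lower in all 33 lines. The promoter of Jam2, a junctional adhesion molecule, fell by 1.82 (SE 0.062), from a median of 19.4 to 5.49, and its RNA was 282 ± 70.6 and 1.83 ± 2.43. The promoter of Tdh, the threonine dehydrogenase of mouse ESCs, fell by 1.60 (SE 0.042), from 35.1 to 58.2 (median 47.6) to 11.7 to 19.8 (median 15.5). In these 3 promoters no EpiLC library reached the lowest ESC library.

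Nanog, a homeobox factor of the naive network, had promoter values of 45.2 to 73.2 in ESCs (median 56.4) and 16 to 33.1 in EpiLCs (median 23.2). The promoter fell by 1.33 (SE 0.041, limma adjusted p = 9.4e-30), or 0.72 per base, in all 33 lines without overlap. Nanog RNA was 909 ± 129 in ESCs and 37.3 ± 20.7 in EpiLCs. Tbx3, a T-box factor, fell by 1.38 (SE 0.040), from 74.5 to 124.6 (median 99.7) to 31.9 to 49.3 (median 38.3), with RNA of 296 ± 71.5 and 2.68 ± 2.89. Klf2, a Krüppel-like factor, fell by 1.21 (SE 0.038), from a median of 199 to 87.9, but by only 0.12 per base. The nuclear receptor genes Nr5a2 and Nr0b1 fell by 1.32 and 1.08, and by 0.31 and 0.42 per base. Spp1, the osteopontin gene, fell by 1.20 (SE 0.058), from a median of 40.4 to 16.9, with overlap between the states.

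Other naive genes lost their RNA with little change at the promoter region taken. Klf4 had promoter values of 78.6 to 118 in ESCs (median 103) and 64.5 to 105 in EpiLCs (median 83.9), and fell by 0.30 (SE 0.039), with 0.13 per base. Its RNA was 193 ± 55.1 in ESCs and 3.23 ± 2.35 in EpiLCs (SD, n = 33), lower in all lines. The promoter of Esrrb, an orphan nuclear receptor, rose by 0.35 (SE 0.050), from a median of 18.3 to 22.1, while its RNA was 598 ± 91.0 and 18.5 ± 12.9. Socs3 and Stat3, of the LIF pathway that sustains naive cells, rose by 0.59 and 0.25, with RNA of 94.7 ± 31.8 and 5.67 ± 2.28, and of 92.7 ± 20.2 and 8.96 ± 4.14. Fgf4, a ligand that drives exit from the naive state, rose by 0.49 (−0.09 per base), with RNA of 271 ± 73.8 and 67.8 ± 32.8. For Klf5 the states overlapped in full, at 43 to 63.1 and 41 to 65.4, and RNA was 175 ± 40.5 and 8.38 ± 3.93. Of 21 naive genes with RNA, 19 were lower in all 33 lines, beside 10.5% of 11755 genes, and their median RNA difference was −3.30.

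Core pluripotency genes, shared by both states, moved in both directions. All 15 had a promoter region, of which 6 were called higher and 9 lower, beside 66.4% and 17.9% of all gene promoters. Lin28a, an RNA-binding inhibitor of let-7 processing, had promoter values of 16.3 to 42.9 in ESCs (median 25.6) and 74.3 to 114 in EpiLCs (median 93.2). It rose by 1.80 (SE 0.057, limma adjusted p = 6.0e-29), or 1.55 per base, without overlap. Lin28a RNA was 126 ± 72.5 and 722 ± 159 (SD, n = 33), higher in all 33 lines. Dppa2, a chromatin factor of bivalent promoters, fell by 1.95 (SE 0.046), from 35.2 to 87.6 (median 71.4) to 7.26 to 36.3 (median 18), and 0.88 per base. Its RNA was 121 ± 39.3 and 153 ± 42.2, higher in 22 lines. Tdgf1, the NODAL co-receptor Cripto, fell by 1.00 (SE 0.045), from a median of 111 to 55.4, with RNA of 859 ± 309 and 365 ± 299.

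The master regulator Pou5f1 fell by 0.36 (SE 0.033), from a median of 122 to 92.3, with RNA of 783 ± 74.4 and 1060 ± 427, higher in 25 lines. Sox2, its partner, fell by 0.13 (SE 0.037) but was 0.18 higher per base, and its RNA was 322 ± 75 and 75.3 ± 35.3, lower in all lines. The other 12 promoters of this list, with Pou5f1 and Sox2 among them, lay between −0.83 and 0.48.

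Formative and primed promoters opened by small steps. Of 27 listed genes, 20 had a promoter region, of which 17 were called higher, beside 66.4% of all gene promoters, and Etv5 alone was called lower. Zic5 (0.03) and Cdh2 (−0.01) did not pass the test. The median was 0.47, and 0.40 per base. Only Fgf8, Krt18 and Tead2 opened at least 2-fold. Fgf8, a signalling ligand of the epiblast and early mesoderm, went from 12.5 to 26.7 in ESCs (median 19.1) to 35.2 to 49.5 in EpiLCs (median 40.1), a rise of 1.13 (SE 0.036) and of 1.11 per base. Krt18, a keratin, rose by 1.09 (SE 0.053), from a median of 10.2 to 21.8, and 0.55 per base, with RNA of 5.82 ± 2.67 and 43.2 ± 20.8. Tead2, a partner of YAP, rose by 1.02 (SE 0.035), from a median of 22.6 to 46.0, and 0.44 per base, with RNA of 114 ± 28.0 and 150 ± 53.3.

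Pou3f1, a POU factor of the formative state also known as OCT6, rose by 0.91 (SE 0.040), from 36.5 to 52.5 (median 44.4) to 63.9 to 106 (median 84.6). The promoter was already open in ESCs, where its RNA was 2.63 ± 1.01, against 182 ± 59.2 in EpiLCs (SD, n = 33). Dnmt3a, a de novo DNA methyltransferase, rose by 0.49 (SE 0.037), with RNA of 56.7 ± 28.9 and 684 ± 164. Otx2, a homeobox factor of the formative state, rose by 0.25 (SE 0.040), with RNA of 8.64 ± 8.18 and 40.4 ± 23.4. Etv5, an ETS factor downstream of FGF, fell by 1.38 (SE 0.048), from 95.5 to 145 (median 119) to 31.0 to 68.8 (median 45), and 1.24 per base, without overlap. Etv5 RNA was 497 ± 79.8 and 256 ± 67.8, lower in all 33 lines. Of 191 regions within 50 kb of these genes, 17 opened and 15 closed at least 2-fold (8.9% and 7.85%, beside 4.31% and 10.5% of all shared regions). Fgf5, a standard marker of EpiLCs, had no promoter region shared by the 2 tables.

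**Figure D3:**
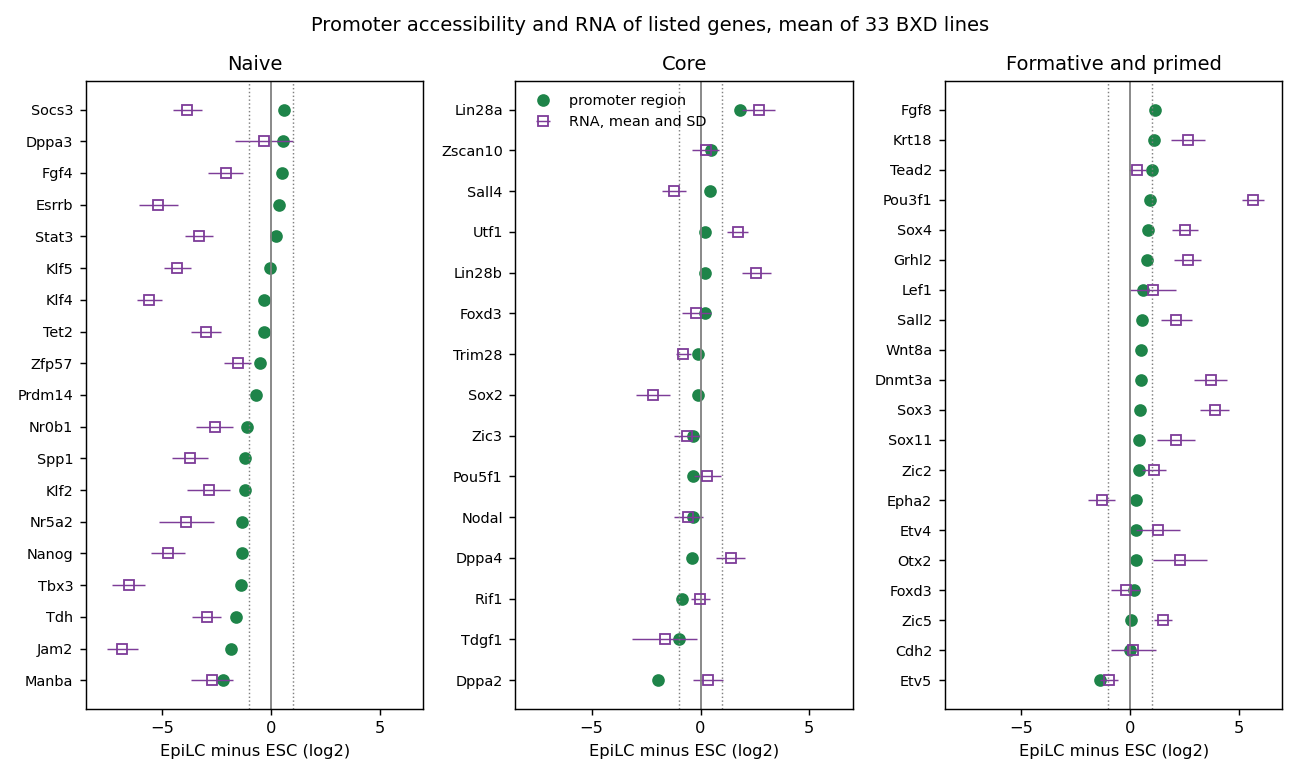
Mean difference over 33 BXD lines (EpiLC minus ESC, log2) of the promoter region (filled circles) and of RNA (open squares with SD) for listed naive, core, and formative and primed genes with a promoter region. RNA spans about −7 to 6 while promoters stay between −2.21 (Manba) and 1.80 (Lin28a).

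In the signalling lists few promoters changed by 2-fold, which 5.09% of all gene promoters did upwards and 1.28% downwards. Of 15 genes of the Nodal pathway, which patterns the epiblast, the receptor gene Acvr1b (1.19) and the SMAD partner Foxh1 (1.04) rose and Tdgf1 fell. Foxh1 RNA was 23.7 ± 6.43 in ESCs and 63.6 ± 12.7 in EpiLCs, higher in all 33 lines, and Acvr1b RNA was 32.3 ± 13.2 and 16.4 ± 4.90, higher in 3. Of 18 FGF and ERK genes Fgf8 rose and Etv5 fell, of 13 Wnt genes the effector Tcf7l2 rose (1.46), and of 9 LIF and STAT3 genes none passed 2-fold in either direction. Of 9 DNA methylation genes the oxidase gene Tet3 rose (1.08). None of these lists had a 2-fold promoter rise per base except FGF and ERK, through Fgf8.

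Lineage promoters opened without RNA of the same direction in several cases. Over all gene promoters 5.09% opened at least 2-fold. Of 10 trophectoderm promoters 4 did, with Krt19 (1.47) and Tfap2c (1.15) first, but per base only Krt19 (1.32), while Krt19 RNA was 9.14 ± 5.77 in ESCs and 4.12 ± 2.83 in EpiLCs and Tfap2c RNA 39.9 ± 21.3 and 14.7 ± 8.73 (SD, n = 33). Of 10 primitive endoderm promoters, those of Sox7 (1.20) and Gata4 (1.17) opened, and Gata4 RNA was 2.08 ± 1.00 and 0.76 ± 0.71. Of 10 mesendoderm promoters, Fgf8 and Hand1 (1.07) opened, of 9 neuroectoderm promoters none, and of 9 germline promoters Taf7l (1.28) and Ddx4 (1.07), the latter with RNA of 5.84 ± 3.42 and 22.2 ± 5.96. Of 9 adhesion genes, the epithelial genes Epcam (1.41) and Krt18 opened, and Epcam RNA was 64.3 ± 24.1 and 318 ± 73.3, higher in all lines. Per base, Krt19, Fgf8, Ddx4 and Epcam were the only promoters of these lists with a 2-fold rise. The single two-cell-like promoter measured stood at 0.68. Of 13 housekeeping promoters none passed 2-fold, with a median of −0.07.

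Summed RNA of feeder fibroblast genes was lower in EpiLCs, while their promoters moved both ways. Their summed RNA was 1954 to 9760 in the ESC libraries (median 3748) and 199 to 1528 in the EpiLC libraries (median 343). Of 15 genes 8 were lower in all 33 lines, beside 10.5% of 11755 genes, and none was under 1 in either state on average. Of 10 feeder promoters, Dcn (1.29), Col1a2 (1.18) and Col1a1 (1.14) opened and none closed at least 2-fold, beside 5.09% and 1.28% of all gene promoters, and per base none passed 2-fold. With changes of any size 6 were called higher and 3 lower, beside 66.4% and 17.9% of all gene promoters. For the collagen genes RNA went the other way: Col1a1 RNA was 660 ± 492 in ESCs and 13.7 ± 25.1 in EpiLCs (SD, n = 33), and Col1a2 RNA 256 ± 187 and 13.1 ± 20.3. For Dcn, a proteoglycan gene, it went the same way, at 3.46 ± 1.64 and 11.1 ± 5.98, higher in 31 lines. Fn1, the fibronectin gene, fell in its promoter by 0.42, and its RNA was 1860 ± 444 and 156 ± 85.7. The part of feeder cells in the regions that closed was not tested. Across lines, summed feeder RNA in ESCs and the extent of closing, defined further on, had r = 0.22 (permutation p = 0.223).

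Over all genes, promoter and RNA changes were loosely related. Across 9931 genes with both measures, Pearson r was 0.22 and Spearman rho 0.14, and genes are not independent replicates. For 109 genes with a promoter that closed at least 2-fold, the median RNA difference was −1.12, and 51.4% had RNA at least 2-fold lower, beside 11% of all. For 271 genes with a promoter that opened at least 2-fold the median was 0.37, and 24.4% had RNA at least 2-fold higher, beside 10.2% of all.

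The extent of the transition differed between lines by a limited amount. For each line, opening was taken as its median difference over the 2989 regions that opened at least 2-fold in the 6 parental lines, and closing as that over the 5742 that closed, so that the BXD data did not choose the regions. Opening ran from 0.88 in BXD154 to 1.26 in BXD85 (median 1.05). Closing ran from −1.61 in BXD68 to −1.10 in BXD74 (median −1.45). In the parents, whose own data chose these regions, opening was 1.18 to 1.30 and closing −1.58 to −1.24. Across the 33 lines opening and closing had r = −0.06 and rho = −0.07 (permutation p = 0.732 and 0.717). With quantile normalization r was −0.59 (adjusted permutation p = 0.00135), so this relation depends on the scaling, and within the blocks of library numbers of the EpiLC libraries it was −0.80, −0.31 and −0.09.

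Lines that closed more also lost more naive RNA. The median RNA difference of the naive genes ran from −4.45 in BXD71 to −2.52 in BXD74. Across the 33 lines closing and naive RNA correlated at r = 0.65 (permutation p = 8e-05, adjusted 7.2e-04 over 9 pairs of measures) and rho = 0.64 (permutation p = 1.4e-04, adjusted 0.00126). Without BXD74 and BXD125, the lines farthest from the median in closing, r was 0.54. The EpiLC libraries carry numbers in 3 blocks, and r was 0.75 within numbers 88 to 97 (7 lines), 0.74 within 110 to 120 (10 lines) and 0.54 within 130 to 146 (16 lines). Without BXD69, the shallowest library, r was 0.67. None of the other 8 pairs, which set opening or closing against formative RNA, feeder RNA, depth, each other or naive RNA, passed the test (adjusted p of 0.83 or more for r). BXD74, at the weak end of both measures, was also the line with the highest X signal in ESCs. BXD125, the next line in closing at −1.15, had an X signal of −0.07 in ESCs. Closing was −1.26 in BXD86, −1.37 in BXD85 and −1.46 in BXD44, the other lines with raised X in both states. In the lines with other raised chromosomes it was −1.20 (BXD84), −1.23 (BXD81), −1.23 (BXD90), −1.30 (BXD99) and −1.45 (BXD161), beside a median of −1.45. Whether chromosome signal bears on closing was not tested.

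**Figure D4:**
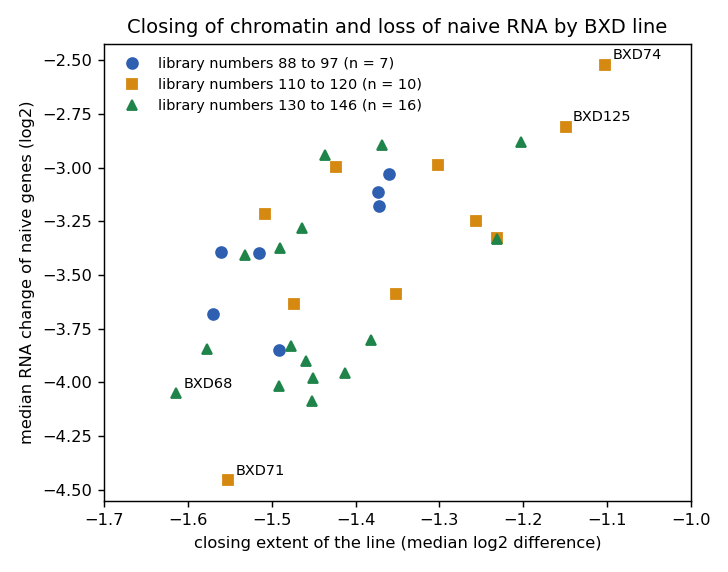
Closing of each BXD line (median log2 difference over 5742 regions, x axis) against the median RNA difference of naive genes (log2, y axis), with 1 point per line and a symbol per block of library numbers. The 33 points run from BXD68 and BXD71 at the lower left to BXD74 at the upper right, with r = 0.65.

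Across lines, promoter and RNA changes of the same gene moved together for some genes. Of 139 listed genes with both measures, 23 had a positive correlation and 0 a negative one past an adjusted p of 0.05 in a permutation test (22 positive with rho), and the median r was 0.25. With each library set to the same total, 36 were positive and 0 negative. Genes outside the lists were not tested in this way, so no share over all genes can be set beside these counts. All 3 blocks of library numbers gave a positive r for 21 of the 23. Etv4, an ETS factor downstream of FGF, was highest with r = 0.81 (rho = 0.82, permutation p = 1e-05, the smallest that 100000 shuffles give, adjusted 3.5e-04), and 0.81 without the farthest 2 lines. Lin28a had r = 0.76 (rho = 0.70), with promoter differences of 1.01 to 2.35 and RNA differences of 1.02 to 3.85, and 0.70 without the farthest 2 lines. Its r within the blocks was 0.77, 0.41 and 0.87.

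Dnmt3l, a cofactor of the de novo methyltransferases, had r = 0.75 (0.62 without the farthest 2 lines), and Krt19 and Spry2, an inhibitor of FGF signalling, had r = 0.69 each. The Spry2 promoter as a whole stood at 0.07, with lines from −0.39 to 0.55, so its lines spread to both sides of 0. The 5 lowest were Tbp (−0.40), Hprt (−0.38), Psmb2 (−0.37), Smad2 (−0.36) and Zfp57 (−0.25), with adjusted permutation p of 0.079 to 0.304. Of these 5, Tbp, Hprt and Psmb2, are housekeeping genes.

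How far the change differed between lines depended on the region. The SD of the paired difference over lines had a median of 0.31 on the log2 scale, beside SDs of 0.24 within ESCs and within EpiLCs, and it exceeded 0.5 at 5276 regions and 1 at 104. For 52160 regions, the ESC and EpiLC values across lines correlated with a median r of 0.17, and 12.3% were above 0.5, as a description over values that share depth and line. The median was 0.11 for promoters and 0.22 for intergenic regions.

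Lines fell into distinct levels in ESCs at several of the 8 regions that varied most. Those in Trpm3 and near Tex35 and Gm16368 are described first. In an intron of Trpm3, a calcium channel gene, at chr19:22720683-22722482, 16 lines had ESC values of 1.54 to 3.96 and 17 lines values of 9.36 to 35.2, with nothing between. In EpiLCs the lines ran from 3.23 to 11.4. Of the 33 lines, 13 were at least 2-fold higher and 15 at least 2-fold lower in EpiLCs, from −2.81 in BXD71 to 2.21 in BXD98, and the mean of −0.21 did not pass the test (limma adjusted p = 0.50). The region was 1799 bases wide in the ESC table and 1191 in the EpiLC table, and per base, after each table was rescaled to the same total, the mean turned to 0.65 (limma adjusted p = 0.038). The 3 B6 lines had 8.41 to 10.3 in ESCs and 4.78 to 5.94 in EpiLCs, and the 3 D2 lines 2.38 to 3.25 and 9.81 to 11.4.

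Near Tex35, a testis gene 39.5 kb away, 17 lines had ESC values of 0.51 to 3.11 and 16 lines 7.64 to 21.2, and EpiLC values were 2.04 to 9.30. Here 9 lines were at least 2-fold higher and 14 at least 2-fold lower, and the mean was −0.26 (limma adjusted p = 0.36), which passed in edgeR on the recovered reads (−0.74, adjusted p = 0.0054). The parental order was the opposite of that in Trpm3, with 1.52 to 2.56 in B6 ESCs and 14.4 to 16.9 in D2 ESCs. Near Gm16368 on chromosome 12, 22 lines had at most 1.75 in ESCs and at most 1.25 in EpiLCs, and 11 lines 22.5 to 51.7 and 5.59 to 20.6. B6 lines had 26.3 to 27.9 in ESCs and D2 lines 0.38 to 0.77. The difference of Gm16368 among the low lines is between values close to 0 and is not described as a change.

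The rest of the 8 most variable regions are less certain. Near Zfp979, a zinc finger gene of a repeated cluster on chromosome 4, lines ran from −3.31 to 3.53. Its widest ESC gap between neighbouring lines was 1.39 on the log2 scale, with 4 lines below, beside 1.22 in Trpm3 and 1.27 near Tex35. Near Zfy1 on the Y chromosome, 6 ESC and 8 EpiLC libraries were at most 0.11 and 0.60, and BXD66 changed by −5.20. The widest ESC gap there was 1.63. Of the lines with raised X in both states, BXD74, BXD85 and BXD86 had Zfy1 EpiLC values of 0, 0.23 and 0.12, and BXD44 5.62. BXD63, with raised X in ESCs only, had 0.23. BXD48, BXD62, BXD66 and BXD95, without raised X, were also at most 0.60. Whether the sex chromosome content of the lines bears on this region was not tested. The last 3 regions lie at Gm10719 on chromosome 9, in repeat copies whose reads cannot be placed uniquely with certainty. At 2 of them the widest gap between neighbouring lines in ESCs was only 0.32 and 0.30 on the log2 scale. At the other it was 1.08, with 10 lines below and 23 above.

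**Figure D5:**
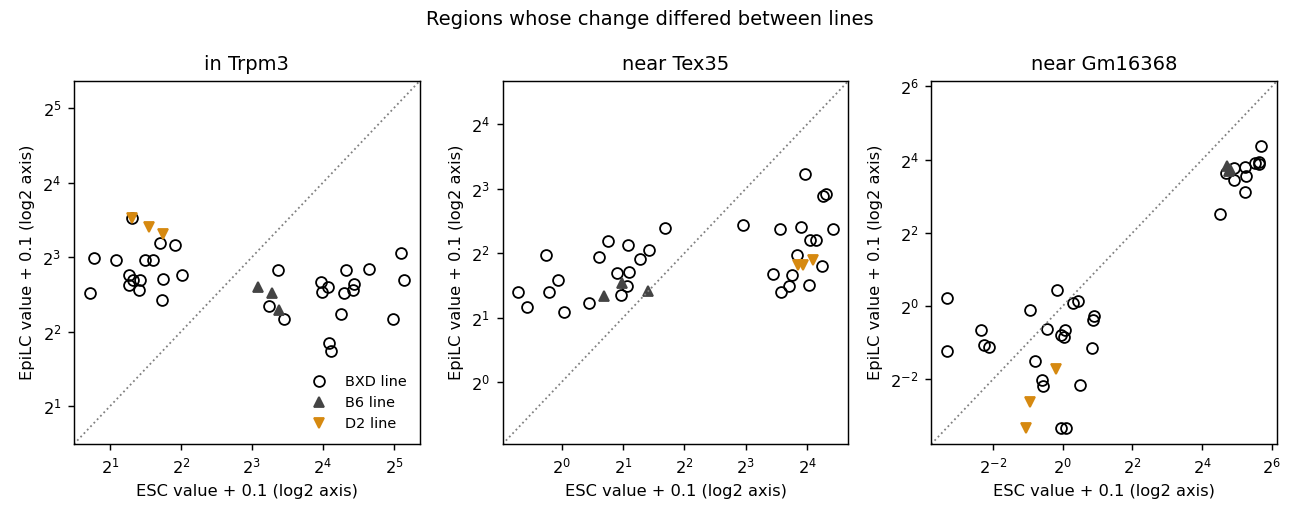
ESC value (x axis) against EpiLC value (y axis), both plus 0.1 on log2 axes, of the regions in Trpm3, near Tex35 and near Gm16368, with 1 circle per BXD line and triangles for B6 and D2 lines. Lines split into separate ESC levels, 16 and 17 lines in Trpm3, 17 and 16 near Tex35, and 22 and 11 near Gm16368, and the dotted diagonal marks equal values.

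The BXD transition was largely that of the parental strains. Across all shared regions the mean differences of BXD and parental lines correlated at r = 0.90, as a description. Of the 2555 regions that opened at least 2-fold in BXD lines, 1635 (64%) did so in the parents, where they were 54.7% of 2989. Of the 6204 that closed, 4534 (73.1%) did so in the parents, where they were 79.0% of 5742, and 0 regions moved 2-fold in opposite directions. The difference between the sets was tested in limma as an interaction: the BXD transition was higher at 4683 regions (7.90%) and lower at 6927 (11.7%). That split depends on scaling. With each library set to the same total, the counts were 7305 higher and 5040 lower, with quantile normalization 7009 and 5831, and with median-ratio factors 5906 and 6180. The parental EpiLC libraries carry numbers outside the BXD blocks, so line set and library series cannot be told apart.

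The regions with the largest interactions moved differently in the sets. In an intron of Smo, the receptor-like transducer of Hedgehog signals, BXD lines averaged 1.19, while B6 lines averaged −0.40 and D2 lines −0.68. The interaction was 1.73 (SE 0.21, limma adjusted p = 8.6e-08), and Smo RNA in BXD lines was 27.8 ± 6.24 in ESCs and 69.8 ± 26.3 in EpiLCs, higher in all 33. At the promoter of Taf1d, a subunit of the polymerase I factor SL1, BXD lines went from 71.8 to 163 (median 121) to 37.9 to 122 (median 72.7), a mean of −0.69. The B6 and D2 lines averaged 0.77 and 1.46 there, with an interaction of −1.80 (SE 0.16, limma adjusted p = 4.1e-11). Taf1d RNA in the BXD lines was 38.3 ± 8.90 in ESCs and 96.2 ± 34.4 in EpiLCs, higher in 32. In an intron of Dlgap2 BXD lines averaged 1.57, beside 0.25 in B6 and −0.30 in D2. In introns of Tbc1d12 and Tex11 BXD lines stood at 0.05 and 0.02, where B6 lines averaged 1.61 and 2.03 and D2 lines by 2.39 and 1.5.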

How the data were processed

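ATAC-seq of 33 BXD lines in 2 states was analysed with that of 6 parental lines. Members and gene lists were chosen with earlier results of these data known. The authors deposited, for each ATAC library, a signal per region that had been scaled by 1 factor. Per the submitters' processing notes, mm10 was the build, and MACS 1.4.2, HISAT2 2.0.5, Bowtie 1.0.0 and Cell Ranger were used, in roles not given. Coordinates are printed as deposited, and whether they count from 0 or 1 is not stated in the labels. Of the values in either table, 100% were whole multiples of 1 step within 0.01, so reads in regions could be recovered. RNA values are a normalized signal of unknown depth that the authors deposited. No column of values was left without a sample (0 unused).

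Regions were matched with bedtools 2.31.1. Gene models were those of GENCODE for GRCm38, and factor overlaps needed a shared base. Each table was rescaled by 1 factor so that the shared regions sum to 1000000 on average. The main test was limma 3.58.1 in R 4.3.3 (lmFit, then eBayes with trend and robust) on log2(value + 0.1) with the line as a block, called at an adjusted p under 0.05, and "at least 2-fold" adds a mean difference beyond 1. The pairing by line number comes from the labels and held in a check on the data for 33 of 33 lines. RNA differences use log2(value + 1) and line counts, without a test. Correlations across lines used 100000 shuffles. The BXD minus parental difference was an interaction in limma. Reads were also simulated for 59294 regions, with both states drawn from the ESC means and the same line effect. The transition test called 100 of 100 regions with a 2-fold change there, 99 of 100 with 1.5-fold and 10 of 59094 unchanged ones. The simulation held no difference in region width, calling or scaling between tables, so it does not measure errors from those.

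Named by rule were listed naive, core and formative genes, the 12 most opened and 12 most closed regions, the 8 with the largest SD over lines (of mean 5 or more), the 2 largest promoter changes of other lists, the 5 highest and 5 lowest promoter to RNA correlations, and the 5 largest BXD minus parental differences each way. RNA values of the genes at these regions, and the lines named with them, were added after the values were seen. Of the 12 most closed regions, 1 is not reported here. Alternatives were other scalings, pseudocount 1, a filter at 2, overlaps of 80% or 1 base, no block, other limma settings and edgeR 4.0.16 on the recovered reads. Values per base, regions of the same width, leaving out BXD69 and the blocks of library numbers were chosen after seeing the data. Tables were handled in Python 3.11.15 with numpy 2.4.6, pandas 2.3.3, scipy 1.17.1 and matplotlib 3.10.9.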

Additional observations from a re-analysis of the deposited data

Results flagged for a closer look

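The results below had a transition that differed between the BXD and the parental lines in the interaction test of limma, among the regions and promoters named in the report. Each value is the BXD minus the parental difference on the log2 scale. The parental EpiLC libraries carry their own series of numbers, so line set and library series cannot be told apart.

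Among the most opened and closed regions, the BXD lines opened more in Ptpru (0.51) and closed more near Cep170 (−0.78), Cdh8 (−0.91) and Armh4 (−0.45) and in Dglucy (−0.58) and Rtf1 (−0.68). At promoters, the loss in BXD lines was larger at Nanog (−0.32), Spp1 (−0.38), Manba (−0.54), Dppa2 (−0.85), Tdgf1 (−0.51) and Etv5 (−0.58), and the gain was larger at Lin28a (0.53) and Tead2 (0.31).

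The largest values in favour of the BXD lines were those of Gm20388 (1.76), Smo (1.73), Scgb2b12 (1.63), Tekt4 (1.62) and Dlgap2 (1.60). The largest the other way were those of Gm15319 (−2.01), Tbc1d12 (−1.95), Taf1d (−1.80), Zfp979 (−1.78) and Tex11 (−1.75). In the intron of Gm20388 all groups lost accessibility, with −1.02 in BXD, −2.68 in B6 and −2.87 in D2 lines. Near Tekt4 the means were 1.33 in BXD, −1.15 in B6 and 0.57 in D2 lines.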

How the results depend on the processing

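The excess of closed over opened regions at 2-fold held under each alternative run, but its size moved with the overlap asked for. With an overlap of at least 80% of both, 27729 regions gave 10550 up, 11037 down, 173 opened and 1779 closed at 2-fold. With any overlap of 1 base, 65737 regions gave 5919 opened and 7912 closed. Chosen after seeing the data, values per base gave 541 opened and 2149 closed, and the 9452 regions of the same width in both tables gave 988 up, 6642 down, 5 opened and 1067 closed. Since width ratio and change correlate at 0.79, this last filter also selects on the change, and nothing is read from its split. Per base the split at any size was 24624 up and 20026 down. Without the replicate block, the pairing by line, 25534 regions passed up, 22333 down, 2548 opened and 6200 closed. The block changed the call of 2 named regions, Gm16368 (limma adjusted p = 0.24 without it) and Zfy1 (0.092), and of no other. Per base, Trpm3 turned to 0.65 (limma adjusted p = 0.038), and Gm16368 (−0.12) and Zfy1 (0.63) missed the threshold. Tex35 passed in edgeR (−0.74, adjusted p = 0.0054). With each library set to the same total, the BXD minus parental count was 7305 higher and 36 genes had a positive promoter to RNA correlation. With quantile normalization, opening and closing correlated at −0.59 (permutation adjusted p = 0.00135). Without BXD69 the counts at 2-fold were 2552 and 6181. edgeR gave 2239 and 6571. The depth of RNA is unknown, and counts near 0, as in Gm16368 and Zfy1, limit those regions. The cause of these shifts was not tested.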
